A study of Arabidopsis thaliana with 8 samples.

Results

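The oxidative pentose phosphate pathway is served in Arabidopsis by 9 dehydrogenase genes, and their transcripts were compared between roots and shoots. The genes are G6PD1 to G6PD6, for the first step, and PGD1 to PGD3, the 6-phosphogluconate dehydrogenase genes. They were picked by gene identifier out of the 33199 genes of the deposited table. Messenger RNA was sequenced from the roots (4 libraries) and the shoots (4 libraries) of Arabidopsis thaliana of the Col-0 accession, with no treatment or mutation named. How old the plants were and how they were grown is not stated in the sources used here, nor whether replicate libraries stem from separately grown plants. The p-values below therefore describe the spread among these libraries, which may be technical.

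In this pathway glucose 6-phosphate is first oxidised, a lactonase opens the product, and 6-phosphogluconate dehydrogenase releases carbon dioxide and leaves ribulose 5-phosphate. Each dehydrogenase step reduces NADP+ to NADPH, and the sugar phosphates are then rearranged by transketolase, transaldolase, epimerase and isomerase. Plants run the oxidative steps in both plastids and cytosol. Chloroplasts obtain NADPH from photosynthesis in the light, whereas the plastids of roots depend on the pathway for the reduction of nitrite and for other syntheses. G6PD1, G6PD2 and G6PD3 encode plastid enzymes, G6PD5 and G6PD6 encode the cytosolic ones, and G6PD4 encodes a plastid-type protein that lacks the activity of its relatives. Of the 6-phosphogluconate dehydrogenases, PGD2 is found in cytosol and peroxisomes, and PGD1 and PGD3 in plastids and cytosol.

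The active-site signature of the family shows how G6PD4 differs from the other 5 enzymes. Each sequence below is the coding strand of the RefSeq annotation on the TAIR10.1 genome, 36 bases long and within 1 coding exon. Capitals mark the 21 bases (7 codons) of the signature.
G6PD1, chr5:13958031-13958066, minus strand: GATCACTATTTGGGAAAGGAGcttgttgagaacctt
G6PD2, chr5:4160457-4160492, plus strand: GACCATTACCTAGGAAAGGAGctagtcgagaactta
G6PD3, chr1:8611096-8611131, plus strand: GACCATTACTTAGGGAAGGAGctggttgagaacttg
G6PD4, chr1:3039993-3040028, minus strand: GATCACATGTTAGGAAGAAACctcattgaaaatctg
G6PD5, chr3:10085287-10085322, minus strand: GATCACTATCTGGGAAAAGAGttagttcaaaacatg
G6PD6, chr5:16312342-16312377, plus strand: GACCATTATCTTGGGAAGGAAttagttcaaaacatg
Within the capitals, G6PD2, G6PD3, G6PD5 and G6PD6 differed from G6PD1 at 5, 5, 2 and 6 bases, and none of these differences changed an encoded residue. G6PD4 differed at 8 bases, and 3 of its 7 codons encoded another residue. The annotation notes the same gene as divergent in its active site.

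All 9 genes were measured in all 8 libraries, with 54 to 3854 reads per gene and library, out of 9857791 to 12460762 assigned reads in root libraries and 10044638 to 11662309 in shoot libraries. Values are FPKM (fragments scaled to gene length and to a library size) as the authors made them, so levels can be set against each other between genes. Members that overlap a gene on the other strand, named below, may have lost reads, which would understate their level. Log2 fold changes, always root minus shoot, were taken of FPKM + 0.5, so those of low genes are understated, and a gene was called at a Benjamini-Hochberg adjusted p under 0.05 in limma over the 20314 genes tested. The 8 green tissue markers, Rubisco and light-harvesting genes among them, summed to 85.8 to 426.2 FPKM in root libraries and 56070 to 72197 FPKM in shoot libraries, and all 8 were called lower in root. Root libraries 1 and 2 held 0.657% and 0.449% of the shoot mean of that sum, and root libraries 3 and 4 held 0.132% and 0.164%. The 8 root markers summed to 341 to 531 FPKM in root libraries and 13.8 to 18.5 FPKM in shoot libraries, with 7 called higher in root, SCR not called, and PLT1 and SMB without a read in shoot. PLT1 and SMB passed the filter on low values (at least 0.5 FPKM in at least 4 of 8 libraries) only through their root libraries. Their calls are therefore no support beyond these values. The sample titles name only root or shoot and no cell type, so fewer cells of a type and less RNA per cell cannot be told apart in any value below.

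Of the 9 dehydrogenase genes, 7 were called, 4 higher in root (G6PD5, G6PD6, PGD1 and PGD2) and 3 lower in root (G6PD1, G6PD2 and G6PD4). Among all tested genes 69.6% were called, with 37.6% higher in root and 32.0% higher in shoot, so the members' count was near the background. The values of the tissues did not overlap for the same 7 members, against 64.8% of all tested genes (34.7% with root higher and 30.1% with shoot higher). A call with at least a 2-fold difference was made for 5 members and for 39.0% of tested genes. The members' median log2 fold change was 0.18, beside 0.07 for all tested genes. The authors' scaling bears on the small differences: scaled by library totals alone, the median of all tested genes moved to 0.58, root was higher in 12142 called genes and shoot in 3997 (7630 and 6500 with the authors' scaling), and 7 members were called higher in root.

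**Figure D1:**
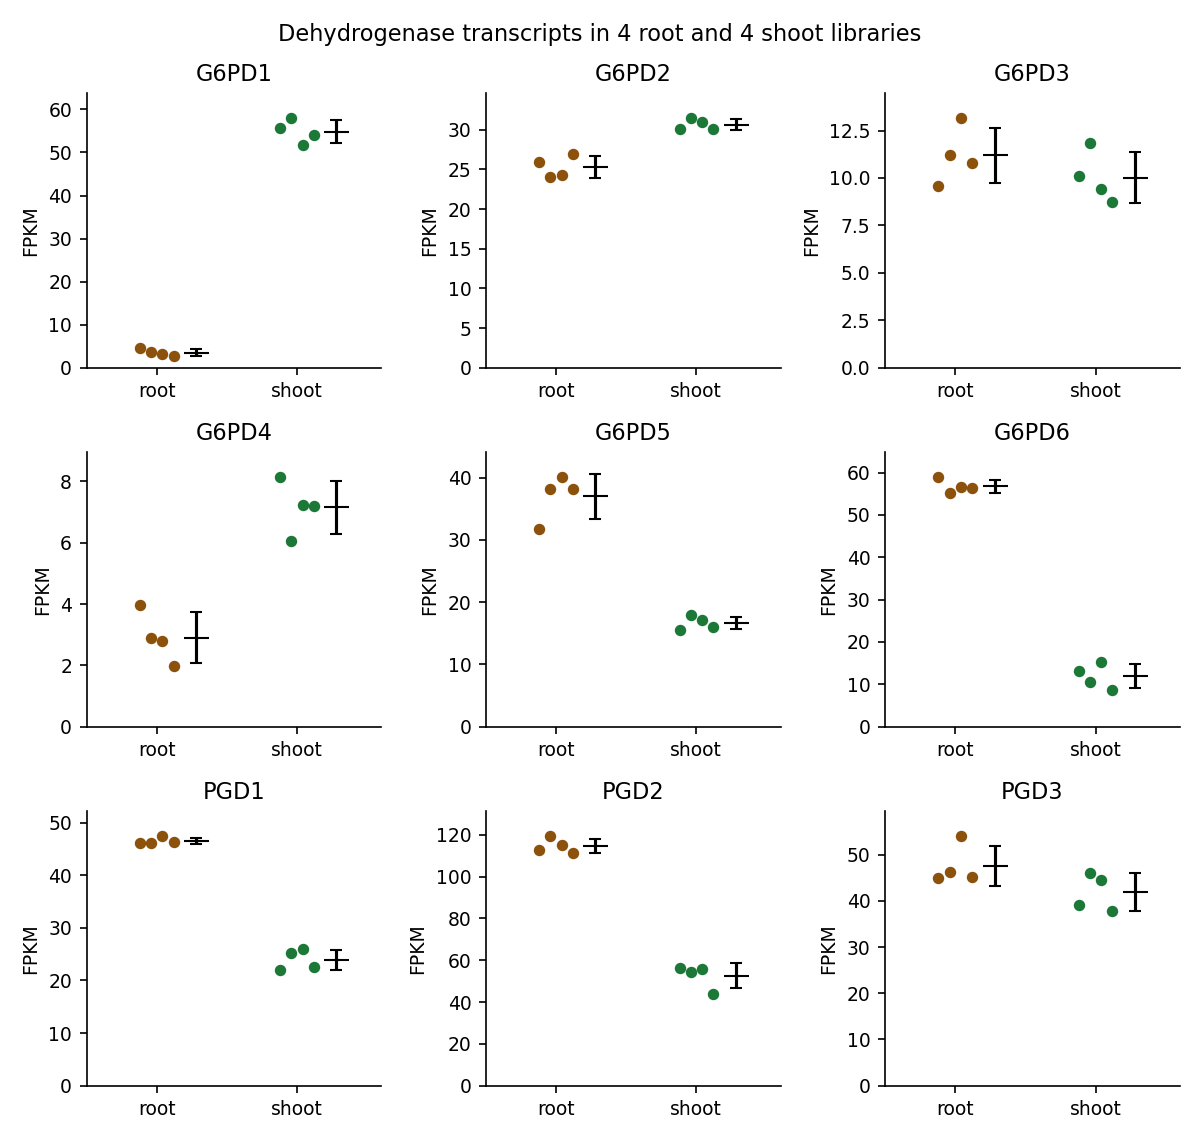
FPKM (vertical axis, starting at 0 and drawn to a separate range in each panel) of the 9 dehydrogenase genes, with 1 point per library, root libraries left and shoot libraries right, and the mean with its SD beside them (n = 4). The points of root and shoot overlap for G6PD3 and PGD3 and are apart for the other 7 genes, with G6PD1 at 2.77 to 4.49 FPKM in root and 51.8 to 57.9 FPKM in shoot.

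G6PD1 (AT5G35790, chromosome 5, 13956672 to 13959830, minus strand) encodes a chloroplast enzyme that reduction by thioredoxin inactivates, and which can be sent to peroxisomes together with G6PD4. It showed the largest difference of the family, with 4.49, 3.60, 3.21 and 2.77 FPKM in root libraries 1 to 4, against 55.7, 57.9, 51.8 and 54.0 FPKM in shoot libraries 1 to 4. No root library came near a shoot library. The means of 3.52 ± 0.729 FPKM in root and 54.8 ± 2.61 FPKM in shoot (SD, n = 4 each) gave a log2 fold change of -3.80 ± 0.13 (SE, adjusted p = 1.17e-09), which is 13.9-fold lower in root. The gene lay at percentile 28.5 of the tested genes by level in root and at percentile 89.6 in shoot. The annotation describes its mRNA as missing from roots, whereas each root library here held 70 to 146 of its reads.

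Root libraries 1 to 4 held 8.18%, 6.56%, 5.86% and 5.05% of the shoot mean of G6PD1. The green tissue markers, at 0.657%, 0.449%, 0.132% and 0.164% of their shoot mean in the same libraries, were also higher in root libraries 1 and 2 than in 3 and 4. Their part in the G6PD1 level in root was not tested. Without root libraries 1 and 2 the log2 fold change of G6PD1 was -3.99 (adjusted p = 5.89e-08).

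G6PD2 (AT5G13110, chromosome 5, 4158639 to 4161845, plus strand) encodes a plastid enzyme that is less sensitive to reduction than G6PD1. It had 26.0, 24.1, 24.3 and 27.0 FPKM in root libraries, against 30.2, 31.4, 31.0 and 30.1 FPKM in shoot libraries. The tissues did not overlap, yet the means were close, at 25.3 ± 1.40 FPKM in root and 30.7 ± 0.663 FPKM in shoot (SD, n = 4 each). The log2 fold change was -0.27 ± 0.08 (SE, adjusted p = 0.00817), and -0.29 (adjusted p = 0.00604) with library sizes set by median of ratios. It turned to 0.27 (adjusted p = 0.0113) when library totals alone set the scale, so its direction rests on the scaling.

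G6PD3 (AT1G24280, chromosome 1, 8609338 to 8612580, plus strand) encodes a plastid enzyme closely related to that of G6PD2. Its values were 9.59, 11.2, 13.1 and 10.8 FPKM in root libraries and 10.1, 11.8, 9.41 and 8.74 FPKM in shoot libraries. The tissues overlapped, and the log2 fold change of 0.15 ± 0.13 (SE, adjusted p = 0.311) was not called, though with library totals alone it was 0.68 (adjusted p = 4.27e-04). The coding sequences of G6PD2 and G6PD3 were identical at 84.3% of aligned bases, with no shared run longer than 52 bases against reads of 150 bases. How reads shared between copies were counted is not stated in the labels.

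G6PD4 (AT1G09420, chromosome 1, 3038462 to 3041873, minus strand), the member with the divergent signature shown above, had the lowest listed level of the 9 in both tissues. That level may be understated, since 696 bases of the gene overlap a non-coding gene on the other strand. It had 3.98, 2.88, 2.79 and 1.98 FPKM in root libraries, against 8.13, 6.05, 7.24 and 7.19 FPKM in shoot libraries. No root library reached the lowest shoot library. The means of 2.91 ± 0.822 FPKM in root and 7.15 ± 0.852 FPKM in shoot (SD, n = 4 each) gave a log2 fold change of -1.19 ± 0.18 (SE, adjusted p = 1.59e-04). Without root libraries 1 and 2 it was -1.42 (adjusted p = 3.16e-04). In root its range overlapped that of G6PD1, and both stayed under 5 FPKM there.

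The cytosolic genes ran the other way. G6PD5 (AT3G27300, chromosome 3, 10083009 to 10086798, minus strand) had 31.8, 38.2, 40.0 and 38.1 FPKM in root libraries, against 15.6, 17.9, 17.1 and 16.1 FPKM in shoot libraries. Its lowest root library was well above its highest shoot library. Means of 37.0 ± 3.60 FPKM in root and 16.7 ± 1.02 FPKM in shoot (SD, n = 4 each) gave a log2 fold change of 1.13 ± 0.09 (SE, adjusted p = 1.36e-06).

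G6PD6 (AT5G40760, chromosome 5, 16310663 to 16314811, plus strand), the second cytosolic enzyme, had 58.9, 55.3, 56.6 and 56.4 FPKM in root libraries, against 13.2, 10.6, 15.4 and 8.78 FPKM in shoot libraries. The root libraries lay close together, while the shoot libraries spread over a wider relative range. The log2 fold change of 2.23 ± 0.15 (SE, adjusted p = 1.98e-07), or 4.69-fold higher in root, was the largest rise in the family. Its level moved to percentile 91.4 of tested genes in root, against percentile 59.4 in shoot. G6PD5 and G6PD6 shared 85.3% of aligned coding bases, with a longest identical run of 47 bases.

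All 3 6-phosphogluconate dehydrogenase genes were abundant in both tissues. PGD2 (AT3G02360, chromosome 3, 481776 to 484152, plus strand) had 112.8, 119.2, 115.0 and 111.2 FPKM in root libraries, against 56.5, 54.1, 55.9 and 44.0 FPKM in shoot libraries. It was the highest member in root in every library. Its log2 fold change was 1.12 ± 0.09 (SE, adjusted p = 1.35e-06).

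PGD1 (AT1G64190, chromosome 1, 23825328 to 23827136, minus strand) had 46.1, 46.0, 47.4 and 46.4 FPKM in root libraries, against 22.01, 25.1, 26.0 and 22.5 FPKM in shoot libraries. The root libraries differed from each other by under 2 FPKM, and none came near a shoot library. The log2 fold change was 0.95 ± 0.08 (SE, adjusted p = 1.53e-06).

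PGD3 (AT5G41670, chromosome 5, 16664674 to 16667390, minus strand) had 44.8, 46.1, 53.9 and 45.1 FPKM in root libraries, against 39.2, 46.1, 44.5 and 37.7 FPKM in shoot libraries. The tissues overlapped, and root library 3 stood above the other root libraries. The log2 fold change of 0.18 ± 0.10 (SE, adjusted p = 0.121) was not called, and it was 0.73 (adjusted p = 4.39e-05) with library totals alone. PGD1 and PGD3, identical at 87.6% of aligned coding bases with a longest run of 41 bases, thus differed in whether they passed the test, and the difference between them is tested below.

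**Figure D2:**
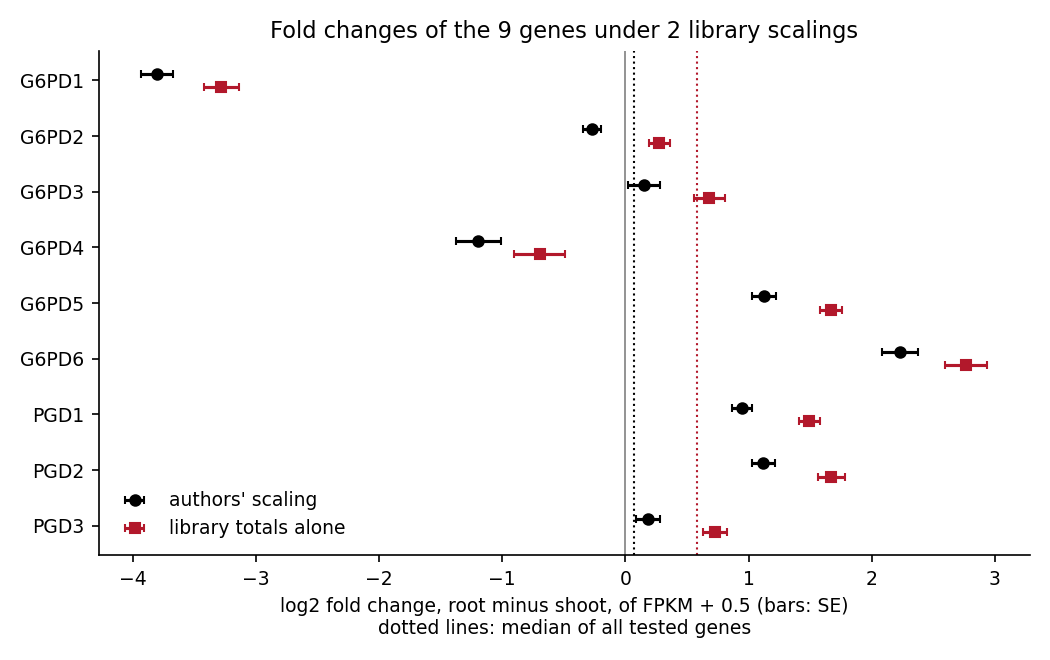
Log2 fold change, root minus shoot, of each dehydrogenase gene (horizontal axis, bars SE) with the authors' scaling (circles) and with library totals alone (squares), the dotted lines marking the median of all tested genes at 0.07 and 0.58. G6PD1 and G6PD4 stay below 0 and G6PD5, G6PD6, PGD1 and PGD2 above it under both, whereas G6PD2 lies at -0.27 with the authors' scaling and 0.27 with library totals.

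Ranked by mean FPKM, the order in root was PGD2, G6PD6, PGD3, PGD1, G6PD5, G6PD2, G6PD3, G6PD1 and G6PD4. Neighbours in that order were apart in all libraries except PGD3 and PGD1, and G6PD1 and G6PD4, whose ranges overlapped. In shoot the order was G6PD1, PGD2, PGD3, G6PD2, PGD1, G6PD5, G6PD6, G6PD3 and G6PD4. There the ranges of G6PD1 and PGD2, of PGD2 and PGD3, and of G6PD6 and G6PD3 overlapped. In both tissues G6PD3, G6PD4 and PGD1 may be placed too low, as each overlaps a gene on the other strand. G6PD1 was thus eighth in root, against first by its mean in shoot, and G6PD6 was second in root, against seventh in shoot.

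The 3 PGD genes summed to 208.5 ± 6.42 FPKM in root and 118.4 ± 10.2 FPKM in shoot (SD, n = 4 each), and with library totals alone to 252.5 ± 9.20 FPKM in root and 97.7 ± 10.5 FPKM in shoot (SD, n = 4 each). Shares within a library do not depend on how libraries are scaled. PGD2 supplied 54.9% of the PGD sum in root and 44.4% in shoot, PGD3 22.8% in root and 35.4% in shoot, and PGD1 22.3% in root and 20.2% in shoot. These sums and shares were chosen as descriptions and were given no test. The PGD1 share may be understated, since that gene overlaps genes on the other strand.

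Pairs of related genes were compared within each library as the difference of their log2(FPKM + 0.5), and the tissues were tested by exact two-sided permutation of the 4 root and 4 shoot libraries, adjusted over the 4 pairs. The smallest p this design allows is 0.0286. G6PD4 relative to G6PD1 averaged -0.25 ± 0.113 in root and -2.86 ± 0.204 in shoot (SD, n = 4 each), a difference of 2.61 (exact permutation p = 0.0286, adjusted p = 0.0381). By the listed values G6PD4 was therefore nearly level with G6PD1 in root, where both were low, and far below it in shoot. G6PD5 relative to G6PD6 averaged -0.62 ± 0.177 in root and 0.49 ± 0.347 in shoot (SD, n = 4 each), a difference of -1.10 (exact permutation p = 0.0286, adjusted p = 0.0381). The higher cytosolic transcript was thus G6PD6 in each root library and G6PD5 in each shoot library.

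PGD3 relative to PGD1 averaged 0.03 ± 0.107 in root and 0.79 ± 0.0570 in shoot (SD, n = 4 each), a difference of -0.77 (exact permutation p = 0.0286, adjusted p = 0.0381). By the listed values these genes were nearly level with each other in root, and PGD3 was the higher in every shoot library. PGD1 overlaps a non-coding gene on the other strand over 578 bases and may have lost reads there. The level of PGD3 relative to PGD1 within a tissue may therefore be overstated. G6PD3 relative to G6PD2 averaged -1.15 ± 0.235 in root and -1.57 ± 0.157 in shoot (SD, n = 4 each), a difference of 0.42 that did not pass (exact permutation p = 0.0571, adjusted p = 0.0571). That does not show the plastid pair to be alike across tissues.

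**Figure D3:**
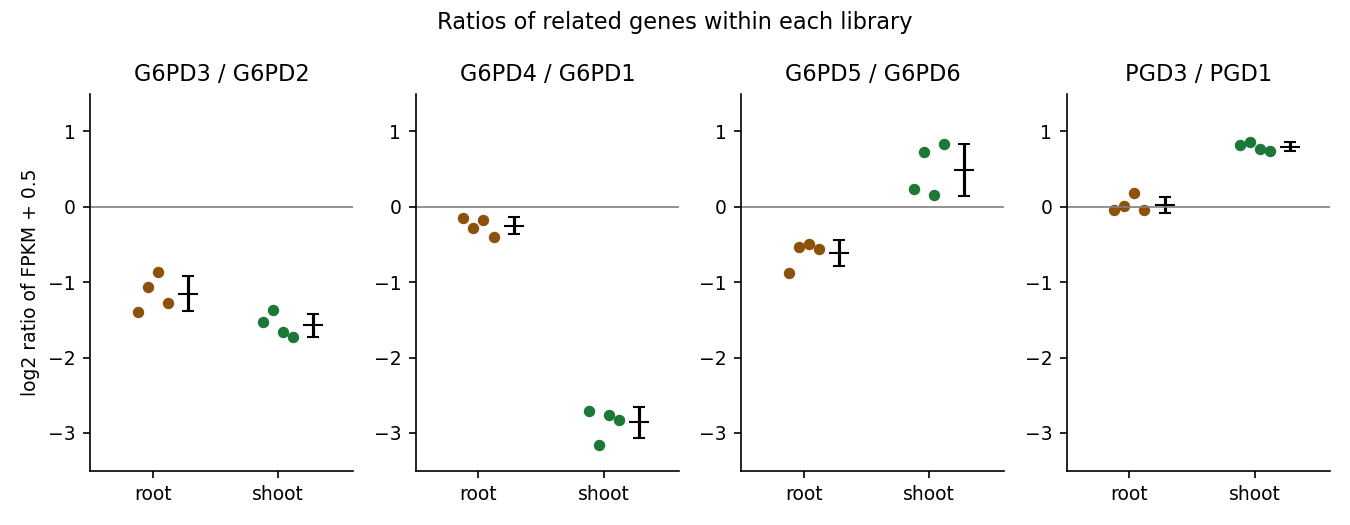
Log2 ratio of FPKM + 0.5 between related genes in each library (vertical axis), with 4 root libraries left and 4 shoot libraries right in each panel, and the mean with its SD beside them. The tissues are apart for G6PD4 to G6PD1, G6PD5 to G6PD6 and PGD3 to PGD1, and a root and a shoot library meet only for G6PD3 to G6PD2.

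The windows of 250 bases before the annotated start of G6PD1 and G6PD6 are shown because these members had the largest difference in each direction. Both come from the TAIR10.1 genome and RefSeq annotation, read 5′ to 3′ on the gene's strand, and hold no other annotated gene.
G6PD1, chr5:13959831-13960080, minus strand: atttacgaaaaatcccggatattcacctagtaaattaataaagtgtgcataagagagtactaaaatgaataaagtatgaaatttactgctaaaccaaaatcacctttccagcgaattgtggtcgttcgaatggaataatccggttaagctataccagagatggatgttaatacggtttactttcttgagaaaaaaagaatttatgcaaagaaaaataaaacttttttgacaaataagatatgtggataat
G6PD6, chr5:16310413-16310662, plus strand: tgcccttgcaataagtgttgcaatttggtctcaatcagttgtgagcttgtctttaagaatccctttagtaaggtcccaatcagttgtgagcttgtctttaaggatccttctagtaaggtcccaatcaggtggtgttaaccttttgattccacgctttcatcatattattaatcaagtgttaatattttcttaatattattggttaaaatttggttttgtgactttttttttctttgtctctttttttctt
Their GC contents were 30.0% and 33.2%, around the median of 31.2% over 27419 such windows. On both strands 4 plant motifs were searched: the G-box CACGTG and the I-box GATAAG of many light-regulated genes, the telo-box AAACCCTA and the site II element TGGGCC, held by 6.48%, 12.3%, 4.47% and 13.7% of all windows. None of these strings was in either window. Among the other members, G6PD3 and G6PD4 held an I-box, 135 and 167 bases before their starts, and PGD3 held a site II element 89 and 91 bases before its start, as overlapping matches on opposite strands. The windows of G6PD4 and PGD3 also overlap another annotated gene, AT1G09430 for G6PD4 and AT5G41675 for PGD3. The matches in these windows may lie inside that other gene, which was not examined. A string match is a description and not a binding site.

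The other genes of the pathway and of its suppliers and users were taken as lists, beside the background of tested genes, 37.6% called with root higher and 32.0% with shoot higher. Of the 5 lactonase genes, which carry out the middle step, 1 was higher in root, 3 were lower in root and 1 was not called, with a median of -0.83. PGL3, the most abundant, averaged 43.1 ± 3.68 FPKM in root and 38.0 ± 5.84 FPKM in shoot (SD, n = 4 each) and was not called (log2 fold change 0.19, adjusted p = 0.166), but it passed without shoot library 2 (0.28, adjusted p = 0.0418). PGL4 had 12.5 ± 1.87 FPKM in root and no read in any shoot library, at least 174-fold higher in root if 3 reads are allowed over the 4 shoot libraries. PGL4 passed the filter on low values (at least 0.5 FPKM in at least 4 of 8 libraries) only through its root libraries. Its call is therefore no support beyond these values. Its neighbour PGL5 had 0.679 ± 0.273 FPKM in root and 10.1 ± 1.54 FPKM in shoot (SD, n = 4 each; log2 fold change -3.18 ± 0.18 SE, adjusted p = 6.32e-08).

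All 11 genes of the regenerative branch were called, 3 higher and 8 lower in root, with a median of -1.35. TKL1, the transketolase that also serves the Calvin cycle, averaged 99.4 ± 4.68 FPKM in root and 590.7 ± 56.6 FPKM in shoot (SD, n = 4 each; log2 fold change -2.56 ± 0.10 SE, adjusted p = 2.57e-09). TKL2, its paralogue, had 34.1 ± 1.72 FPKM in root and 7.74 ± 1.31 FPKM in shoot (SD, n = 4 each; 2.08 ± 0.12 SE, adjusted p = 4.69e-08). RPE, the plastid ribulose-phosphate epimerase shared with the Calvin cycle, showed the largest fall, with 21.05 ± 4.23 FPKM in root and 591.4 ± 89.0 FPKM in shoot (SD, n = 4 each; -4.79 ± 0.15 SE, adjusted p = 7.79e-10). The other genes higher in root, named after their values were seen, were the transaldolase gene TRA2, with a log2 fold change of 1.78, and the epimerase gene AT1G63290, with 0.23. The call of AT1G63290 was lost without root library 3 or 4 or shoot library 1 or 3. TRA1, the other transaldolase gene, was lower in root at -0.25 with the authors' scaling but higher at 0.30 with library totals alone, and its call was lost without root library 1 or 2 or shoot library 2 or 4.

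Of the 11 genes listed for sugar phosphate supply, 10 were tested, of which 5 were higher in root, 2 were lower in root and 3 were not called, with a median of 0.26; GPT2 was too low to test. PGI1, the plastid phosphoglucose isomerase, averaged 84.4 ± 3.06 FPKM in root and 67.6 ± 5.01 FPKM in shoot (SD, n = 4 each; log2 fold change 0.32 ± 0.08 SE, adjusted p = 0.00443). HXK3, a plastid hexokinase, had 29.3 ± 2.56 FPKM in root and 2.32 ± 0.431 FPKM in shoot (SD, n = 4 each; 3.41 ± 0.13 SE, adjusted p = 2.75e-09). PGM1, the plastid phosphoglucomutase, had 7.0 ± 0.981 FPKM in root and 44.7 ± 6.25 FPKM in shoot (SD, n = 4 each; -2.59 ± 0.13 SE, adjusted p = 2.18e-08). GPT1, which imports glucose 6-phosphate into plastids and was named after its values were seen, had 73.1 ± 4.28 FPKM in root and 14.7 ± 0.945 FPKM in shoot (SD, n = 4 each; log2 fold change 2.27).

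Among the 15 genes that pass reductant on or use it, 14 were tested, with 3 higher in root, 10 lower in root and 1 not called, and a median of -3.24; FD4 was listed at 0 in every library. FD2, the main leaf ferredoxin, averaged 41.3 ± 3.90 FPKM in root and 2618 ± 728 FPKM in shoot (SD, n = 4 each; log2 fold change -5.93 ± 0.19 SE, adjusted p = 8.30e-10). GLU2, a ferredoxin-dependent glutamate synthase, had 62.2 ± 11.7 FPKM in root and 8.49 ± 0.638 FPKM in shoot (SD, n = 4 each; 2.78 ± 0.14 SE, adjusted p = 1.70e-08). GLU1, the isoform of photorespiring leaves, had 1.68 ± 1.55 FPKM in root and 407.8 ± 65.3 FPKM in shoot (SD, n = 4 each; -7.82 ± 0.41 SE, adjusted p = 3.11e-08), and -8.67 without root libraries 1 and 2. The remaining members higher in root, named after their values were seen, were the root-type ferredoxin reductase RFNR2 (2.66) and the ferredoxin FD3 (2.06). The genes that reduce nitrate and nitrite, NIA1, NIA2 and NIR1, likewise named after the fact, had log2 fold changes of -6.22, -4.47 and -2.02.

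Of 8 genes for other sources of NADPH, 3 were higher in root, 2 were lower in root and 3 were not called, with a median of 0.21. CICDH, the cytosolic isocitrate dehydrogenase, was the most abundant, with 420.6 ± 9.66 FPKM in root and 338.8 ± 39.6 FPKM in shoot (SD, n = 4 each; log2 fold change 0.32 ± 0.11 SE, adjusted p = 0.0207). Its call was lost without root library 3 or without shoot library 1, 3 or 4, with adjusted p of 0.0503 to 0.0561. NADP-ME1, a cytosolic malic enzyme, had 1.34 ± 0.391 FPKM in root and 0.115 ± 0.166 FPKM in shoot (SD, n = 4 each), with shoot library 1 at 0.362 FPKM and the other shoot libraries at 0 to 0.0542 FPKM. It passed the filter on low values only through its root libraries, and with a filter of 1 FPKM it was not tested, which left 4 called genes in the list, 2 of them higher in root. ALDH11A3, the non-phosphorylating glyceraldehyde phosphate dehydrogenase, had 2.28 ± 2.20 FPKM in root and 130.0 ± 10.6 FPKM in shoot (SD, n = 4 each; -5.86 ± 0.43 SE, adjusted p = 3.98e-07). Its root libraries 1 to 4 held 5.43, 2.15, 0.570 and 0.984 FPKM, so library 1 lifted the mean, and without root libraries 1 and 2 the log2 fold change was -6.69.

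The thioredoxins f and m, which regulate plastid enzymes by reduction, gave 1 gene higher and 5 lower in root out of 6, with a median of -4.47. TRXM4 averaged 19.0 ± 2.71 FPKM in root and 407.6 ± 69.2 FPKM in shoot (SD, n = 4 each; log2 fold change -4.38 ± 0.14 SE, adjusted p = 1.01e-09). TRXF1 had 3.98 ± 1.33 FPKM in root and 364.5 ± 64.2 FPKM in shoot (SD, n = 4 each; -6.37 ± 0.20 SE, adjusted p = 6.94e-10). TRXM3 had 32.6 ± 4.99 FPKM in root and 24.9 ± 4.26 FPKM in shoot (SD, n = 4 each; 0.39 ± 0.15 SE, adjusted p = 0.0351). The tissues overlapped for TRXM3, and its call was lost without root library 1, 3 or 4 or shoot library 2 or 3 (adjusted p 0.0676 to 0.0955).

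**Figure D4:**
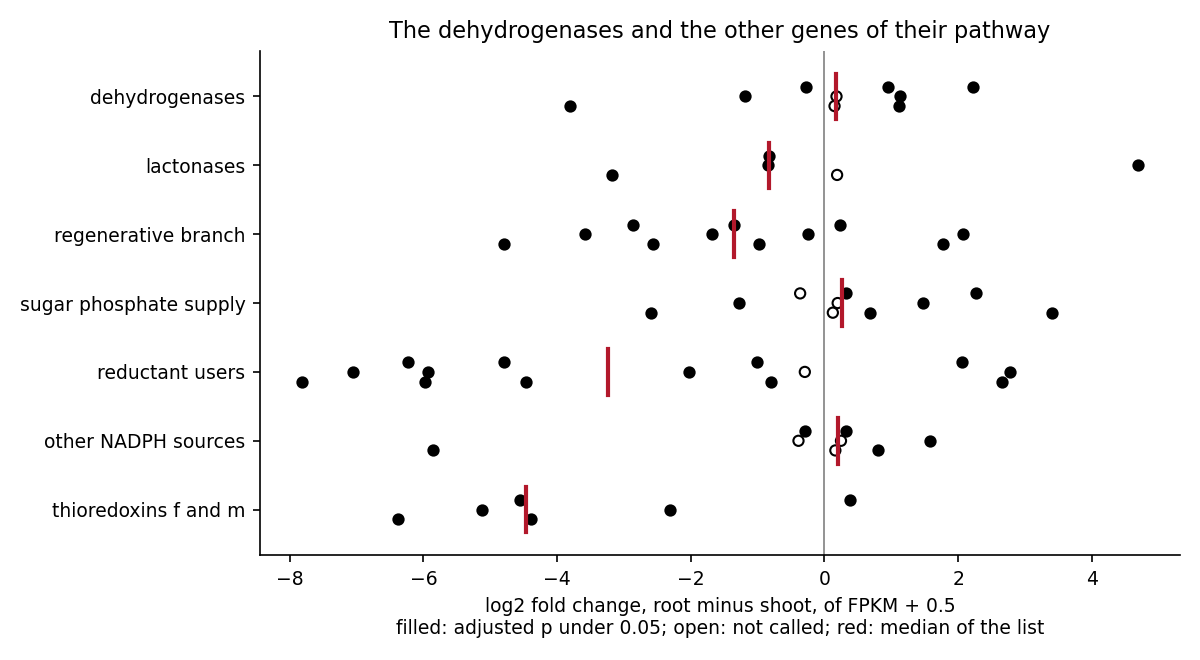
Log2 fold change, root minus shoot (horizontal axis), of the dehydrogenases and of each tested gene in 6 related lists, with filled points for genes at an adjusted p under 0.05, open points for the others, and a red line at each list's median. The dehydrogenases lie on both sides of 0 with a median of 0.18, while the thioredoxins (median -4.47) and reductant users (median -3.24) lie mostly below 0.

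The genes whose pattern over the 8 libraries was most like that of G6PD6, measured as the root mean square difference in centred log2(FPKM + 0.5), were CXE1 (AT1G19190, 0.10), GAUT12 (AT5G54690, 0.126) and CTL2 (AT3G16920, 0.132). CXE1 averaged 5.83 FPKM in root and 0.939 FPKM in shoot, GAUT12 6.30 FPKM in root and 1.12 FPKM in shoot, and CTL2 22.5 FPKM in root and 4.72 FPKM in shoot. Most like G6PD1 were AT2G21960 (0.0923), AT1G29700 (0.0944) and the blue-light receptor PHOT2 (AT5G58140, 0.0965). AT2G21960 averaged 6.41 FPKM in root and 91.8 FPKM in shoot, AT1G29700 2.28 FPKM in root and 39.7 FPKM in shoot, and PHOT2 0.915 FPKM in root and 19.4 FPKM in shoot. With libraries of only 2 kinds, such likeness mainly reflects a similar fold change.

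The libraries did not mark strand, so reads of a member and of an annotated gene opposite it cannot be told apart. Such overlaps existed for G6PD3 (76 bases with AT1G24290 and 315 with the non-coding AT1G05867), for G6PD4 (696 bases with the non-coding AT1G09421) and for PGD1 (56 bases with AT1G64185 and 578 with the non-coding AT1G08657). AT1G09421 and AT1G08657 were listed at 0 in all 8 libraries. Both lie wholly within the span of their member, and how reads shared by overlapping genes were counted is not stated. A value of 0 there therefore does not show that the opposite gene was silent. The member itself may have lost reads over that stretch.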

How the data were processed

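Poly-T beads captured the RNA, and unstranded libraries were read as pairs of 150 bases, per the labels' protocols. Per the submitters' processing notes, HISAT2 2.0.5 and featureCounts 1.5.0-p3 were used with the TAIR10 build; the sources used here do not give the annotation release or how shared reads were treated. The growth protocol attached to the samples describes another species and was not used.

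The deposited table holds FPKM made by the authors. Each value times the gene length was a whole multiple of 1 step per library (tolerance 0.001 reads), so reads were recovered. By a method that is not given, the authors had set each library size to 1.18 to 1.25 times the reads of a root library and to 0.770 to 0.865 times those of a shoot library. Genes with at least 0.5 FPKM in at least 4 of 8 libraries were tested with limma 3.58.1 (R 4.3.3), with a trend in the prior variance, on log2(FPKM + 0.5), without a count model, although counts had been assumed when the tests were planned. Benjamini-Hochberg adjustment ran over 20314 genes. On simulated data (20135 genes) it called 87 of 100 genes given a 2-fold change, 96 of 100 given a 4-fold change and 14 given none. The simulation left all other genes unchanged, used 1 dispersion and scaled by library totals. In the data 69.6% of tested genes were called and the scaling was the authors', so these rates may not hold for them. No library was a copy of another of its tissue (chi-square per gene of 6.64 to 20.1 between them). The bound for a gene at 0 covers counting error only.

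The members and the lists were chosen with earlier results of these data known. Named were all 9 members; from each other list the most abundant tested gene and the called genes with the largest positive and negative change; and for the most positive and most negative called member the 3 tested genes closest in pattern. Alternatives were pseudocounts of 0.1 and 1, no filter or 1 FPKM, library totals, median of ratios, limma-voom on recovered reads, a replicate block and left-out libraries. Sequences are from RefSeq on TAIR10.1, whose annotation gives the same coordinates and strand as the table for all 9 members. Some summed values are not reported here.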

Additional observations from a re-analysis of the deposited data

Results flagged for a closer look

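A library that stood far from the other 3 of its tissue, by Dixon's criterion for groups of 4, was found for 6 genes and 1 ratio among 74 groups of values examined, of which chance flags about 1 in 20. Among the dehydrogenases, PGD3 had 53.9 FPKM in root library 3, against 44.8 to 46.1 FPKM in the other root libraries. The log2 ratio of G6PD5 to G6PD6 was -0.88 in root library 1, against -0.56 to -0.49 in the others. PGL4 had 15.3 FPKM in root library 4, PGL5 1.08 FPKM in root library 2 and TRXM4 14.95 FPKM in root library 3. CICDH had 397.9 FPKM in shoot library 2, and NADP-ME1 had 0.362 FPKM in shoot library 1.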

How the results depend on the processing

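Of the member genes, G6PD1, G6PD4, G6PD5, G6PD6, PGD1 and PGD2 kept their direction and call under every alternative run. G6PD2, G6PD3 and PGD3 changed direction or call with library totals alone and under no other alternative. With median of ratios their log2 fold changes in limma were -0.29, 0.14 and 0.17 (adjusted p of 0.00604, 0.356 and 0.149). With library totals alone, G6PD2 reversed to 0.27, and G6PD3 (0.68) and PGD3 (0.73) were called, giving 7 members higher in root; root was higher in 12142 called genes and shoot in 3997, where the authors' scaling gave 7630 and 6500. Lactonases then numbered 2 with root higher and 1 with shoot higher, and the other NADPH sources 6 and 1. By construction such a change of library size multiplies every FPKM of a library by the same factor. The log2 fold changes of low genes move less, since 0.5 is added to each FPKM. Leaving out 1 library gave 1 to 2 lactonases higher in root (2 without shoot library 2) and 0 to 1 thioredoxins higher in root (0 without root library 1, 3 or 4 or shoot library 2 or 3); the pair differences ranged from 2.51 to 2.66 for G6PD4 to G6PD1, -1.21 to -0.99 for G6PD5 to G6PD6, -0.82 to -0.74 for PGD3 to PGD1 and 0.33 to 0.50 for G6PD3 to G6PD2, given as values with no test. Pair ratios were not recomputed under filters, limma-voom or the block. Same-numbered libraries of the tissues correlated at 0.0152 to 0.0710, and differently numbered ones at -0.0617 to 0.0263. All these values were small, and whether the numbers pair the libraries was not tested. With the replicate block 14104 genes and 7 members were called (G6PD2 adjusted p = 0.0214).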
